A study of Arabidopsis thaliana with 12 samples.

Results

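In Arabidopsis thaliana, root stumps 14 h after excision of the root tip were compared with uncut root tips of the same plate time. The comparison rests on the 2 stump libraries of that time point, 1 from mock-treated and 1 from CNQX-treated plants, and the 4 uncut libraries, 2 per treatment, so 6 of the series' 12 libraries. The libraries were taken by the stage and treatment in their sample labels. The question is how RNA levels in the tissue left behind by the cut stand against those of an intact tip once both have spent 14 h on plates.

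All plants were Col-0 seedlings, 7 days old. Cut plants were moved to medium with 50 µM CNQX, or with mock, for 1 h, the tip was cut off at about 130 µm, the plants went onto new MS plates, and 14 h later a segment of about 100 µm next to the wound was taken from the stump. Uncut plants were kept on CNQX or mock plates for 14 h, and about 100 µm of the tip itself was harvested, from 2 sets of roots per treatment. Whether the new plates of the cut plants held CNQX is not given in the sources used here. An uncut sample is the tip and a stump sample is the tissue just behind it. Excision and position along the root therefore cannot be told apart in any value that follows. Cut plants also went to new plates after 1 h of treatment, while uncut plants stayed on theirs for 14 h. That difference in handling cannot be told apart from excision or position. In bulk tissue a lower level can also mean fewer cells of a type or less RNA per cell, and these cannot be told apart either.

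At the end of a root, a cap covers a small stem cell niche, and the meristem behind it divides, grows and then stops dividing. Cells that leave the meristem elongate and take on final identities. Endodermal cells build the lignin-based Casparian strip, xylem cells thicken their walls, some epidermal cells form hairs, and membrane channels for water and minerals appear. When the tip is removed, the remaining cells can rebuild a niche and a cap, a process in which wound-induced transcription factors and auxin take part. CNQX blocks ionotropic glutamate receptors in animals, and plants carry related glutamate receptor-like channels.

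The 6 libraries held 1575446 to 3302325 counts each, with 18694 to 20873 of 32833 loci detected, so that 3 counts stood for 0.908 to 1.90 CPM, the count scaled to the library's total. The first principal component of log CPM carried 62.4% of the variance and separated both stumps from the 4 tips. Pearson correlations across genes were 0.843 to 0.938 among tips, 0.916 between the stumps and 0.607 to 0.758 between a stump and a tip. Uncut replicate 2 differed from replicate 1 in both treatments, with higher aquaporin and lower heat shock RNA. The 2 stumps are single libraries of 2 treatments, and the labels name separate sets of uncut roots without saying whether these were separate cultures. P values therefore measure only the spread between these libraries.

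Of 15593 genes tested with edgeR's quasi-likelihood test, with treatment and stage as terms, 1946 (12.5%) were higher and 607 (3.89%) were lower in the stumps at a Benjamini-Hochberg adjusted p under 0.05, which is 16.4% in all. The median log2 fold change over all genes was -0.001. Among called genes the median was 2.69 for the higher and -1.64 for the lower set. Of the higher genes 113 had no count in any tip, and of the lower genes 25 had none in either stump. In 1942 of the 1946 and 606 of the 607, the stump values lay wholly outside the range of the tips, where 24.6% of all genes did so on the high side and 18.1% on the low side. The count rested most on the mock stump: without it 204 genes were called (185 higher, 19 lower), and without the CNQX stump 1014 were (895 higher, 119 lower). In these 2 fits a single stump is assumed to vary like the uncut libraries.

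The 28 gene lists held 456 named entries, and those with too few counts were not tested. Over all genes tested 12.5% were higher and 3.89% lower, and each list count below is to be read beside these shares. Of the list entries tested, 129 were called, 93 higher and 36 lower. These counts were 22 (19 and 3) without the mock stump and 77 (63 and 14) without the CNQX stump. At least 50% of the members tested were higher in the lists of Casparian strip, xylem, transport, root hair and lateral root genes. The same held for the photosynthesis, hypoxia, triterpene, wall loosening, and wound and regeneration lists. The lists of cap, niche, mitosis, replication, ribosome assembly, heat shock and glutamate receptor-like genes had no higher member. Values after ± are standard errors of the log2 fold change, a number alone in brackets after a gene name is its log2 fold change, stump over tip, and levels are in CPM in the order mock uncut 1, mock uncut 2, CNQX uncut 1, CNQX uncut 2, then mock and CNQX stump.

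**Figure D1:**
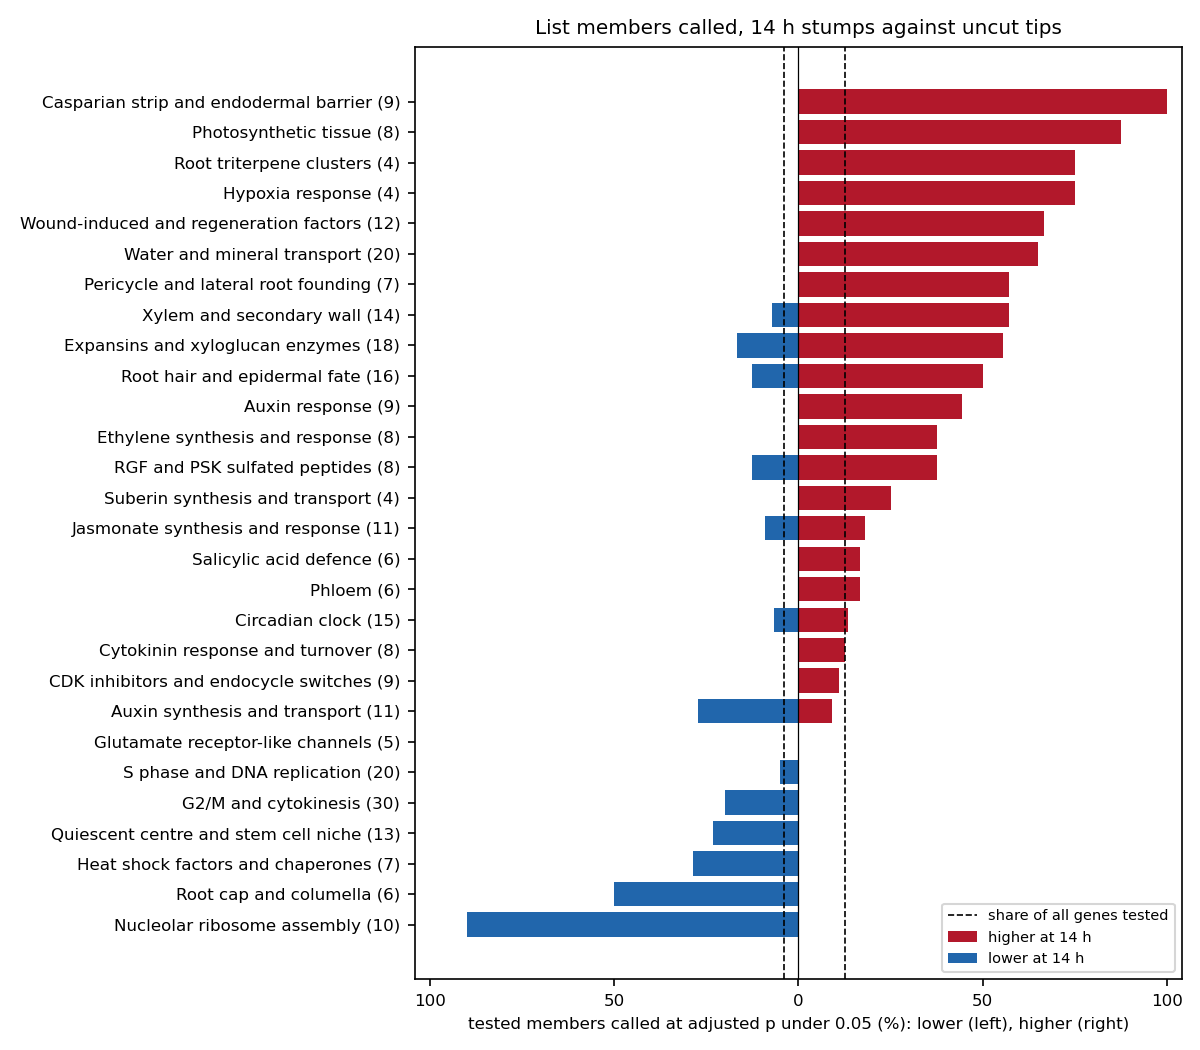
Share of tested members of each list called at an adjusted p under 0.05, higher in the 14 h stumps (right) or lower (left), in %, with the number tested in brackets; dashed lines mark the shares over all genes, 12.5% and 3.89%. All 9 Casparian strip genes lie on the right and 9 of 10 nucleolar genes on the left.

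RNAs of cap identity genes were low or missing in the stumps. Of the 6 cap and columella genes tested, 3 fell and 0 rose, with a median log2 fold change of -2.27. The sum over the tested genes was 115 to 179 CPM in the tips and 49.0 and 48.1 CPM in the stumps. SMB (AT1G79580), a NAC factor that gives lateral cap cells their identity, stood at 3.81, 7.1, 6.91 and 17.1 CPM in the tips and at 0 in both stumps, at least 11.5-fold lower (adjusted p = 0.00664). CEL5 (AT1G22880), a cellulase made as cap cells separate, read 36.9, 67.7, 49.0 and 71.7 CPM in the tips against 6.94 and 3.07 CPM, a fall of 3.47 ± 0.54 (log2, adjusted p = 0.00113). BRN1 (AT1G33280), a NAC factor of cap maturation, held 4.1, 12.9, 1.88 and 19.0 CPM in the tips and 0 and 0.511 CPM in the stumps, higher in the tips by 39.5-fold, 95% interval 6.9 to 1576 (exact Poisson, counting error only). For all 3 genes both stumps lay below every tip. Counts of SMB and BRN1 were small, and 1 gene of the list was called without the mock stump and 1 without the CNQX stump.

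The other cap genes were less uniform. BRN2, the partner of BRN1, had 3.52, 5.43, 2.51 and 4.27 CPM in the tips and no count in the stumps, and FEZ, which promotes cap stem cell division, had 2.05, 1.67, 8.16 and 4.27 CPM in the tips and 0.434 and 0 CPM in the stumps, but neither passed the filter on low counts. The auxin response factor genes ARF16 (41.6 to 61.0 CPM in the tips, 23.0 and 26.1 CPM in the stumps, adjusted p = 0.075) and ARF10 (5.43 to 20.23 CPM against 15.6 and 14.8 CPM) were not called. Neither was ACR4, a receptor kinase of the cap and niche, at 5.22 to 10.9 CPM in the tips and 3.47 and 3.58 CPM in the stumps. BFN1, a nuclease of dying cells, had 0.293, 0.418, 0 and 0.95 CPM in the tips and 12.6 and 2.04 CPM in the stumps. CLE40, a peptide gene of the columella, had no count in any library. SMB, BRN1 and BRN2 were detected in all 4 tips and were at or near 0 in both stumps. Other genes of the list, such as ARF10 and BFN1, did not show this, so it is no check of the labels.

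Among 13 stem cell niche genes, 3 fell and 0 rose, and the list median of -0.29 lay near that of all genes. PLT1 (AT3G20840), an AP2 factor that sustains the niche, read 4.98, 3.76, 13.2 and 20.4 CPM in the tips and 0 in both stumps, at least 13.4-fold lower (adjusted p = 0.00323). MGP (AT1G03840), a zinc finger target of SHR and SCR, went from 22.9, 21.3, 21.98 and 29.4 CPM in the tips to 0.867 and 7.16 CPM (-2.77 ± 0.63, adjusted p = 0.0105). HSFB4 (AT1G46264), which guides divisions in the niche, stood at 39.9, 53.9, 44.0 and 39.9 CPM in the tips and 18.6 and 17.38 CPM (-1.30 ± 0.38, adjusted p = 0.0387). All 3 lay below every tip in both stumps, and 1 gene of the list was called when either stump was left out.

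The radial patterning genes SHR, SCR and JKD of the same list were not called. SHR held 24.5 to 56.0 CPM in the tips and 46.8 and 43.0 CPM in the stumps, SCR 52.1 to 100.2 and 88.0 and 74.1 CPM, and JKD 30.5 to 36.4 and 31.2 and 23.5 CPM, with stump values inside the tip range for SHR and SCR. PLT2 (3.76 to 17.58 CPM against 0.434 and 4.09 CPM) and BBM (4.59 to 10.4 CPM against 0 and 3.58 CPM), relatives of PLT1, missed the threshold at adjusted p = 0.0583 and 0.114, while PLT3, another relative, had 45.8 to 108 CPM in the tips and 65.0 and 100.2 CPM in the stumps. NUC, a zinc finger gene of the ground tissue, was above every tip at 33.4 and 28.1 CPM against 11.9 to 15.0 CPM, without a call (adjusted p = 0.0598). The remaining tested genes overlapped between the groups: MYB56 with 0.418 to 10.05 CPM in the tips and 10.8 and 8.18 CPM in the stumps, AGL42 with 5.85 to 12.8 and 13.4 and 10.7 CPM, and the peptide gene RGF2 with 0.586 to 20.7 and 0.867 and 0 CPM. WOX5, the homeobox gene of the quiescent centre, was detected in 1 of 4 tips, at 1.26 CPM, and in both stumps at 3.04 and 4.6 CPM, and was too low to be tested. RGF1, RGF3, PLT7 and the wound factor gene ERF115 were also under the filter.

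**Figure D2:**
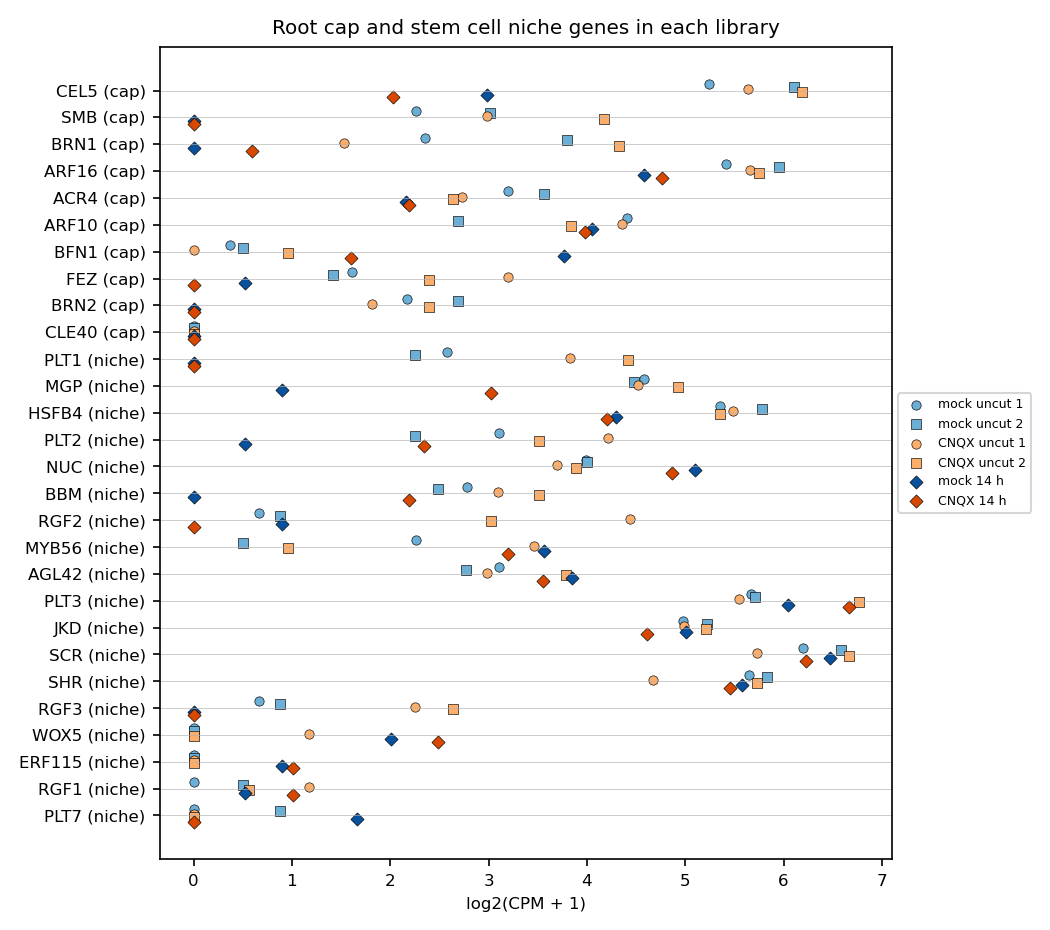
Level of each root cap and stem cell niche gene, as log2(CPM + 1), in the 4 uncut libraries (circles and squares) and the 2 stumps (diamonds). SMB, BRN2 and PLT1 are at 0 in both stumps, whereas SHR and SCR overlap between the groups.

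Genes for making ribosomes were lower in the stumps. Of 10 nucleolar assembly genes, 9 fell and 0 rose, with a median of -1.48, and their sum was 3602 to 4833 CPM in the tips and 1176 and 1579 CPM in the stumps. NAP57 (AT3G57150), the pseudouridine synthase dyskerin, read 1568, 1860, 1338 and 1231 CPM in the tips and 306 and 430.0 CPM (-2.01 ± 0.37, adjusted p = 0.00352). NOP56 (AT1G56110), a core protein of box C/D particles, went from 372, 476, 434 and 368 CPM to 125 and 139.6 CPM (-1.64 ± 0.34, adjusted p = 0.00666). FIB1 (AT5G52470), the rRNA methyltransferase fibrillarin, went from 498, 611, 495 and 475 CPM to 148 and 183 CPM (-1.65 ± 0.35, adjusted p = 0.00669). In each case both stumps were below all 4 tips, and the mock stump was the lower of the pair. The nucleolin gene NUC-L1 (-1.43), the assembly factor gene PES (-1.50), FIB2 (-1.47), RID2 (-1.49), PUM24 (-1.17) and TOZ (-1.38) fell as well. PUM23 did not pass the test at 17.55 to 89.99 CPM in the tips and 28.6 and 49.1 CPM in the stumps. Leaving out the mock stump, 0 of the 10 were called, without the CNQX stump 3, and with all 12 libraries in the fit 3. FIB1 and FIB2 are close copies, and NOP56, FIB1, FIB2 and NUC-L1 overlap another annotated gene, so their counts are less certain.

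Most ribosomal protein loci had fold changes below 0, and 247 of 305 were not called. The family was collected by annotation after the values were seen, and its count carries no test of its own. Of 305 loci tested, 55 fell and 3 rose, where 3.89% of all genes were lower and 12.5% higher. A fold change below 0 was seen in 270, and the median over the 305 was -0.98 where that of all genes was -0.001. Together they held 12.3%, 9.65%, 16.95% and 9.27% of counts in the tips and 4.42% and 6.38% in the mock and CNQX stumps. Uncut replicate 1 was above replicate 2 in both treatments. The number that fell was 14 without mock uncut replicate 1, 15 without CNQX uncut replicate 1, 151 without CNQX uncut replicate 2, 8 without the CNQX stump and 0 without the mock stump. With replicate 1 tips alone 238 fell, with replicate 2 tips alone 21, with DESeq2 123, without a count filter 137 and with all 12 libraries 11. AT4G10450, annotated as an L6 family protein, showed the lowest p of the family, at 455, 330.5, 552 and 267 CPM in the tips and 70.2 and 85.9 CPM (-2.37 ± 0.42, adjusted p = 0.00255). Many of these genes have near-identical copies, and the sharing of reads between copies is not known.

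Most mitotic genes had fold changes below 0, but few passed the test. Of 30 G2/M and cytokinesis genes 6 fell and 0 rose, where 3.89% of all genes were lower, and the median was -1.07. In both stumps 20 of the 30 lay below every tip, where 18.1% of all genes did. The sum over the list was 705 to 792 CPM in the tips and 364 and 390.1 CPM in the stumps. CDC20.2 (AT4G33260), an activator of the anaphase-promoting complex, read 16.7, 27.6, 17.0 and 18.1 CPM in the tips and 3.04 and 3.58 CPM (-2.56 ± 0.55, adjusted p = 0.00747). CYCB1;2 (AT5G06150), a mitotic cyclin, went from 45.1, 53.1, 21.4 and 37.5 CPM to 7.81 and 11.8 CPM (-1.95 ± 0.49, adjusted p = 0.0171), and CYCA2;4 (AT1G80370), an A-type cyclin, from 20.8, 31.3, 35.8 and 35.6 CPM to 5.2 and 12.3 CPM (-1.89 ± 0.45, adjusted p = 0.014). The groups did not overlap in any of the 3. The cytokinetic kinesin gene HIK (-1.39), the spindle factor gene TPX2 (-1.36) and the anaphase activator gene CCS52B (-1.79) also fell. The syntaxin gene KN, known as KNOLLE, read 44.7 to 90.9 CPM in the tips and 21.68 and 42.4 CPM in the stumps (adjusted p = 0.062), and CYCB1;1, a widely used mitotic reporter, 15.9 to 26.4 CPM and 5.64 and 10.2 CPM (adjusted p = 0.0923). The cyclin-dependent kinase genes CDKB1;1 (-0.57), CDKB1;2 (-1.08), CDKB2;1 (-0.86) and CDKB2;2 (-0.58) were not called, nor were the activator genes MYB3R-1 (-0.33) and MYB3R-4 (-0.53). The other 16 uncalled members, PLE, CDC20.1, AUR1, AUR2, AUR3, CYCB1;3, CYCB1;4, CYCB2;1, CYCB2;2, CYCB2;3, CYCB2;4, CYCB3;1, CYCA1;1, CYCA2;3, EDE1 and TES, had fold changes from -1.90 to 0.17. Without the CNQX stump 2 genes of the list were called and without the mock stump 0.

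DNA replication genes gave 1 call among 20 (5%, where 3.89% of all genes were lower). It was the sliding clamp gene PCNA1 (AT1G07370), at 131, 110.3, 149 and 114 CPM in the tips and 49.9 and 70.6 CPM (-1.08 ± 0.34, adjusted p = 0.0494). The list's median was -0.91, and 13 members lay below every tip, where 18.1% of all genes did. The sum was 895 to 1140 CPM in the tips and 477 and 562 CPM in the stumps. MCM3, a helicase subunit gene (-1.38, adjusted p = 0.0511), and the licensing genes CDT1A (-1.35, 0.0576) and CDT1B (-2.19, 0.0524) missed the threshold. PCNA1 lay close to the threshold and lost its call in 8 of 19 alternatives, those without mock uncut replicate 1, mock uncut replicate 2, CNQX uncut replicate 1 or either stump among them. When either stump was left out no member passed, while 5 did with DESeq2, 6 with upper-quartile scaling, 7 without a count filter and 9 with replicate 1 tips alone. Of 9 CDK inhibitor and endocycle genes, KRP2 (AT3G50630), an inhibitor of cyclin-dependent kinases, rose from 2.64, 2.51, 11.9 and 8.55 CPM to 52.0 and 24.5 CPM (2.91 ± 0.62, adjusted p = 0.0073) and was not called without the mock stump. KRP2 was the only call of this list, 11.1% of its members tested, where 12.5% of all genes were higher. The trichome and endocycle regulator gene SIM had 6.27 to 34.5 CPM in the tips and 63.3 and 44.5 CPM in the stumps (adjusted p = 0.0641).

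**Figure D3:**
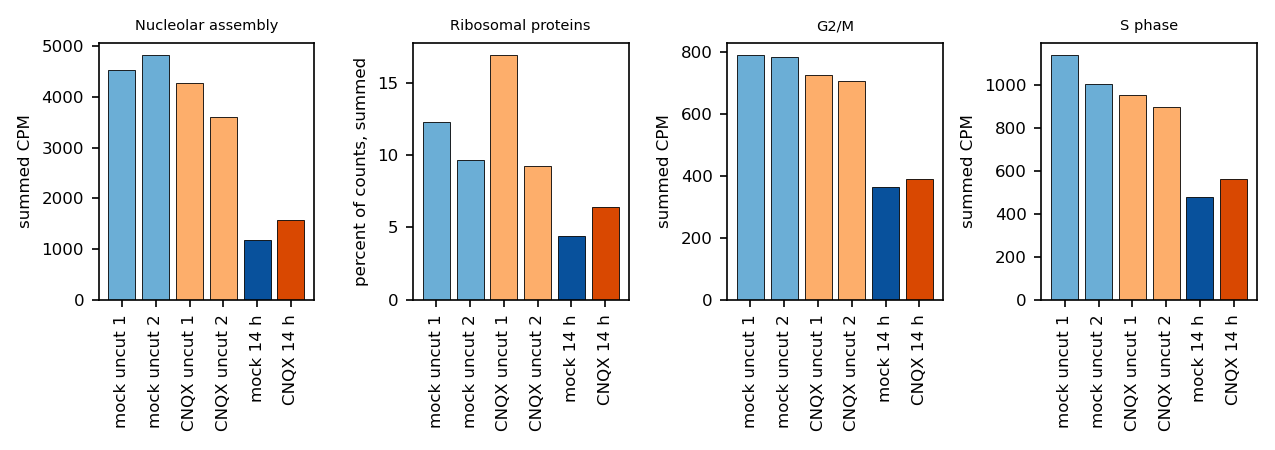
Summed CPM in each library of the tested nucleolar assembly, ribosomal protein, G2/M and S phase genes; bars start at 0 and the ribosomal protein panel is in percent of all counts. Both stumps (dark bars) are below all 4 uncut libraries in every panel.

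Promoters are shown for genes of both kinds that fell. Many mitotic promoters in plants carry a mitosis-specific activator element with the core AACGG, and many ribosomal promoters carry the telo box AAACCCTA; the telo box, and the NAP57 and NOP56 windows shown for it, were chosen after the values were seen. Windows ran from 250 bases before to 50 after each gene's start in the TAIR10.1 annotation, both strands were searched (CCGTT and TAGGGTTT on the reverse strand), and neither motif contains the other. The core AACGG was in 20 of 30 G2/M windows (66.7%), 8 of 20 S phase windows (40.0%) and 1 of 9 Casparian windows, against 27.3% of 14964 protein-coding genes tested and 24.7% of all 27443. The telo box was in 6 of 10 nucleolar windows and 113 of 305 ribosomal protein windows (37.0%), against 6.06% of genes tested and 6.22% of all. Of the 3 G2/M genes with the lowest p, CYCA2;4 had no AACGG in its window, and neither had CASP1, PER64 or ESB1, the Casparian genes described further on. Capitals mark the motif, and each window is written along the gene's own strand, 5′ to 3′. CDC20.2 is chr4:16043500-16043799 on the minus strand, with matches at positions 22 and 44 from the gene start. CYCB1;2 is chr5:1861654-1861953 on the minus strand, with 5 matches. NAP57 is chr3:21156026-21156325 on the minus strand and NOP56 is chr1:20986903-20987202 on the minus strand, with 2 telo boxes each. A match is only a match of letters, and binding was not measured.
CDC20.2: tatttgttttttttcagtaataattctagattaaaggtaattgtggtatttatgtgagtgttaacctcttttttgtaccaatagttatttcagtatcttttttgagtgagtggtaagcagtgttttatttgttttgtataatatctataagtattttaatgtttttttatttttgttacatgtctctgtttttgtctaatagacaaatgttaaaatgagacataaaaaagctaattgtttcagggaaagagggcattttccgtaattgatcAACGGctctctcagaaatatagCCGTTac
CYCB1;2: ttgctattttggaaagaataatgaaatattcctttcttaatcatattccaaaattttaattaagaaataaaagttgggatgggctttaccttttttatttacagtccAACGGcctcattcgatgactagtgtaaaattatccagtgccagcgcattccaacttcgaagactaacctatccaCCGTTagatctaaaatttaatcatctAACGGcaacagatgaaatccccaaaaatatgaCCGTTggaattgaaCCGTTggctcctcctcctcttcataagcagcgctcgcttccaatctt
NAP57: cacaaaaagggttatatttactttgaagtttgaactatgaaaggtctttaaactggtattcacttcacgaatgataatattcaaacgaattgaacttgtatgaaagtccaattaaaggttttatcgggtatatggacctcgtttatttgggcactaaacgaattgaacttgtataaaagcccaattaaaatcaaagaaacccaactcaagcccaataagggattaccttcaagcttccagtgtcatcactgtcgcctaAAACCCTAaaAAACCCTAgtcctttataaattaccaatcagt
NOP56: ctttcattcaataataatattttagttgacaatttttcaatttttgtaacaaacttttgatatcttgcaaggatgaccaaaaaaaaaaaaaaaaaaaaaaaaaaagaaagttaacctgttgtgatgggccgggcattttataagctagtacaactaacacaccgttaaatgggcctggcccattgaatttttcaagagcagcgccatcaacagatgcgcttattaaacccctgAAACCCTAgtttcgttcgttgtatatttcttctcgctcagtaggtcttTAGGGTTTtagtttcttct

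All 9 tested Casparian strip genes rose. Their median log2 fold change was 7.495 (6.56 with members at 0 in the tips set to their bound), and their sum was 20 to 42.7 CPM in the tips and 709.9 and 375 CPM in the stumps. CASP1 (AT2G36100), a membrane scaffold protein of the strip, read 0.293, 0.418, 0 and 0 CPM in the tips and 129 and 58.8 CPM in the stumps, higher by 459-fold, 95% interval 126 to 3806 (adjusted p = 8.55e-06). CASP2 (AT3G11550) had no count in any tip and 45.1 and 11.8 CPM in the stumps, at least 94.4-fold higher. CASP4, of the same scaffold family, had 1 count over the 4 tips and was higher by 288-fold, 95% interval 50.7 to 11450. PER64 (AT5G42180), the peroxidase that polymerises lignin at the strip, read 0.293, 0.418, 0 and 0.475 CPM in the tips and 104.5 and 52.7 CPM (256-fold, 95% interval 86.8 to 1246, adjusted p = 1.05e-05). ESB1 (AT2G28670), a dirigent-like protein that places that lignin, went from 2.93, 5.01, 1.26 and 2.85 CPM to 156 and 71.1 CPM (5.19 ± 0.42, adjusted p = 2.56e-05). MYB36 (AT5G57620), the transcription factor that switches on strip genes, went from 2.35, 2.51, 2.51 and 0.95 CPM to 51.2 and 34.8 CPM (4.36 ± 0.47, adjusted p = 0.000102). The mock stump was above the CNQX stump in all of these. The receptor kinase gene GSO1, also called SGN3 (2.501), and the NADPH oxidase gene RBOHF (2.73) rose less. CASP5 was under the filter, with no count in the tips and 1.3 and 5.11 CPM in the stumps. Without the CNQX stump all 9 were called, and without the mock stump 4. CASP1, PER64, ESB1 and GSO1 overlap a gene on the other strand, and strand use in counting is not stated.

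For suberin, the later endodermal coat, most genes were too low to be tested. No count was found in either stump for 8 entries and in any tip for 10. Of 17 suberin entries 4 could be tested, and 1 rose: ASFT (AT5G41040), a feruloyl transferase, at 0, 0, 0 and 0.475 CPM in the tips and 46.0 and 26.1 CPM in the stumps (350.1-fold, 95% interval 61.9 to 13920, adjusted p = 7.29e-05). The acyltransferase gene GPAT5 and the hydroxylase gene CYP86A1, both central to suberin, had no count in any of the 6 libraries, which allows up to 3 counts each, or 0.908 to 1.90 CPM. The elongase gene KCS20 read 10.05 to 30.9 CPM in the tips and 35.6 and 50.1 CPM in the stumps, MYB92 2.51 to 9.02 and 11.3 and 3.58 CPM, and the transporter gene ABCG2 1.26 to 8.77 and 6.07 and 1.53 CPM. None of these 3 was called. The remaining 13 entries, KCS2, MYB93, FAR1, FAR4, FAR5, ABCG6, ABCG20, MYB41, MYB53, CYP86B1, FACT, GPAT5 and CYP86A1, were under the filter.

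The pathway that feeds lignin rose throughout. The phenylpropanoid list and the flavonoid list were drawn up from textbook steps after the values were seen, and they carry no test of their own. All 14 tested genes of the general phenylpropanoid and monolignol steps were called higher, with a median of 3.69 and sums of 406 to 687 CPM in the tips and 9705 and 6280 CPM in the stumps. PAL1 (AT2G37040), phenylalanine ammonia-lyase, the entry enzyme, read 53.4, 28.8, 38.9 and 19.9 CPM in the tips and 2351 and 1677 CPM (5.83 ± 0.40, adjusted p = 1.01e-05). 4CL1 (AT1G51680), which activates the acids to CoA esters, went from 0.879, 0.418, 1.26 and 0.95 CPM to 183 and 103 CPM (7.31 ± 0.47, adjusted p = 8.55e-06). CAD4 (AT3G19450), which makes the alcohols, went from 129, 199.7, 78.5 and 133 CPM to 1718 and 1093 CPM (3.38 ± 0.34, adjusted p = 7.29e-05). Both stumps exceeded every tip for all 14 genes, and 13 remained called without the CNQX stump and 10 without the mock stump. Flavonoid synthesis branches from the same pathway, and all 6 of its tested genes rose, with a median of 3.64. Chalcone synthase, TT4 (AT5G13930), its first enzyme, stood at 289, 235, 217 and 179.5 CPM in the tips and 3657 and 2872 CPM in the stumps (3.83 ± 0.31, adjusted p = 2.56e-05). The flavonol synthase gene FLS1 (3.91), the hydroxylase genes F3H (2.38) and TT7 (3.44), the isomerase gene TT5 (4.34) and the regulator gene MYB12 (2.06) followed.

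Loci annotated as peroxidases or dirigent-like proteins were among the risen genes too. Their part in coupling monolignols in the wall was not tested. By annotation, again collected after the values were seen, 24 of 38 tested peroxidase loci rose and 1 fell. Of 12 dirigent-like loci 10 rose and 0 fell, where 12.5% of all genes were higher and 3.89% lower. Peroxidase counts were 13 without the mock stump and 15 with DESeq2, and the dirigent count was 6 without the mock stump. The dirigent-like gene AT3G55230 had 1 count over the 4 tips and 113 and 53.7 CPM in the stumps, higher by 816-fold, 95% interval 146 to 32320. The peroxidase that fell was AT5G24070, at 8.21, 26.7, 19.5 and 52.2 CPM in the tips and 0.434 and 1.53 CPM in the stumps (-4.73 ± 0.84, adjusted p = 0.00268).

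Xylem genes of wall building were higher. Of 14 tested, 8 rose and 1 fell, where 12.5% of all genes were higher and 3.89% lower. Their median was 2.89, with sums of 107 to 254 CPM in the tips and 690.4 and 343 CPM in the stumps. LAC4 (AT2G38080), a laccase of lignin polymerisation, read 0, 0.836, 0 and 0 CPM in the tips and 70.7 and 44.0 CPM in the stumps (278-fold, 95% interval 76.0 to 2305, adjusted p = 4.23e-05). Its relatives LAC17 (5.46) and LAC11 (4.75), the secondary wall cellulose synthase genes CESA4 (2.77), CESA7 (3.02) and CESA8 (4.40), and the protease genes of dying vessel cells XCP1 (4.44) and XCP2 (3.31) rose with it. ACL5 (AT5G19530), which makes thermospermine and delays vessel maturation, fell from 44.3, 25.5, 31.4 and 19.9 CPM to 10.4 and 9.71 CPM (-1.57 ± 0.46, adjusted p = 0.0363) and was not called when mock uncut replicate 1, CNQX uncut replicate 1 or either stump was left out. Early vascular genes were not called: TMO5 had 2.09 to 6.16 CPM in the tips and 2.17 and 1.02 CPM in the stumps, LHW 28.3 to 85.2 and 50.7 and 38.9 CPM, PHB 20.7 to 79.4 and 44.7 and 42.4 CPM, HB-8 5.65 to 17.1 and 20.8 and 15.8 CPM. The protease gene MC9 had 5.86 to 25.6 and 13.9 and 4.09 CPM. VND6, VND7, MYB46, MYB83 and XND1 were under the filter. LAC17, LAC11, CESA4, CESA7, CESA8, XCP1 and ACL5 overlap a gene on the other strand, and strand use in counting is not stated. In the fit lacking the CNQX stump 5 were called higher, and without the mock stump 2.

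Phloem was little represented, and 16.7% of its genes tested were higher, where 12.5% of all genes were. SMXL5 (AT5G57130), a repressor needed early in phloem formation, rose from 4.98, 10.03, 4.4 and 4.27 CPM to 44.2 and 28.6 CPM (2.63 ± 0.44, adjusted p = 0.00179), the only call among 6 genes, lost without the mock stump and with all 12 libraries. The receptor gene BAM3 read 0.628 to 15.5 CPM in the tips and 28.2 and 21.0 CPM in the stumps, the callose synthase gene CALS7 2.64 to 3.77 and 8.24 and 8.69 CPM, OPS 2.35 to 9.61 and 9.11 and 13.3 CPM, SMXL3 7.12 to 11.7 and 6.94 and 5.62 CPM, and CVP2 1.47 to 4.75 and 8.24 and 2.04 CPM. SUC2, the sucrose loader of companion cells, had no count in the tips and 3.04 and 2.56 CPM in the stumps. APL, NAC045, NAC086, NEN4, BRX, SEOR1, SEOa, SMXL4, PEAR1 and CLE45 were also under the filter.

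Pericycle and lateral root genes gave 4 rises and 0 falls among 7 tested, with a median of 4.76. IAA28 (AT5G25890), an auxin-responsive repressor upstream of founder cell identity, went from 4.4, 4.59, 3.77 and 16.6 CPM in the tips to 244 and 130.4 CPM (4.76 ± 0.55, adjusted p = 0.00017). GATA23 (AT5G26930), a founder cell factor gene that IAA28 controls, had no count in the tips and 10.4 and 7.67 CPM in the stumps, at least 29.0-fold higher. LRP1 (AT5G12330), first described in lateral root primordia, went from 2.05, 0, 1.26 and 1.9 CPM to 108 and 67.5 CPM (5.97 ± 0.59, adjusted p = 6.8e-05). MAKR4, which acts in founder cells, was at least 39.4-fold higher. The auxin response factor genes ARF7 (39.6 to 68.1 CPM in the tips, 84.6 and 83.3 CPM in the stumps) and ARF19 (44.6 to 92.3 and 82.0 and 64.4 CPM) and the F-box gene SKP2B (1.47 to 14.7 and 11.3 and 8.18 CPM) were not called. LBD16 and PUCHI, which act as primordia begin, were under the filter and stood high in 1 stump each, at 20.4 and 2.56 CPM and 26.9 and 3.58 CPM in the mock and CNQX stumps, with at most 1 count over the tips. LBD18, LBD29 and LBD33 were under the filter. In the fit lacking the mock stump 2 were called.

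In the epidermis, hair growth genes were higher and early fate genes were lower or level. Of 16 genes 8 rose and 2 fell, where 12.5% of all genes were higher and 3.89% lower, and the median was 1.60. RSL4 (AT1G27740), the factor that drives hair growth, read 0.293, 0.418, 0.628 and 0.475 CPM in the tips and 20.4 and 19.9 CPM (5.38 ± 0.67, adjusted p = 0.000267). The hair expansin genes EXPA7 (0, 0.418, 0 and 2.38 CPM in the tips, 75.9 and 60.3 CPM in the stumps, 6.63) and EXPA18 (175-fold, 95% interval 47.7 to 1458), the wall protein genes PRP3 (at least 232-fold) and LRX1 (5.67), COBL9 (3.83), the NADPH oxidase gene RHD2 (2.97) and RSL2 (at least 31.2-fold) rose as well. WER (AT5G14750), the MYB factor of non-hair fate, read 19.9, 22.6, 50.2 and 23.3 CPM in the tips and 0 and 0.511 CPM in the stumps, lower by 113-fold, 95% interval 20.02 to 4463 (adjusted p = 0.000335). EGL3 (AT1G63650), its bHLH partner, read 12.9, 10.03, 30.1 and 17.1 CPM in the tips and 0 and 3.07 CPM (-3.72 ± 0.79, adjusted p = 0.00735). For both genes the stumps lay below every tip. RHD6 (8.07 to 17.0 CPM in the tips, 14.7 and 8.69 CPM in the stumps), RSL1 (7.12 to 10.7 and 0.434 and 3.07 CPM), CPC (6.74 to 20 and 8.24 and 13.8 CPM), GL2 (9.38 to 32.6 and 8.24 and 12.8 CPM), GL3 (3.34 to 20 and 4.34 and 4.6 CPM) and TTG1 (13.3 to 28.0 and 20.8 and 19.9 CPM) were not called, and TRY, ETC1 and MYB23 were under the filter. Without the mock stump 3 higher and 1 lower gene were called, and DESeq2 called 5 higher.

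Wall proteins changed in both directions. Of 18 expansin and xyloglucan enzyme genes 10 rose and 3 fell, with a median of 2.73. For these and the extensin counts below, the shares over all genes were 12.5% higher and 3.89% lower. XTH14 (AT4G25820), a xyloglucan endotransglucosylase gene, had 2 counts over the tips and 111 and 35.3 CPM in the stumps (362-fold, 95% interval 99.5 to 3005, adjusted p = 6.45e-05), and XTH20 was higher by 390.2-fold, 95% interval 69.1 to 15500. EXPA1 (AT1G69530) went from 3.52, 0.418, 5.02 and 1.9 CPM to 47.3 and 54.7 CPM (4.24 ± 0.56, adjusted p = 0.000401). XTH5 (AT5G13870) went the other way, from 70.3, 30.5, 107 and 19.9 CPM to 1.74 and 1.02 CPM (-5.27 ± 0.88, adjusted p = 0.00183), as did EXPA15 (-2.86) and EXPA14 (-2.10). XTH12 and XTH13 are close copies and were at least 82.5-fold and 32.0-fold higher. Counts were 5 and 2 without the CNQX stump, 3 and 0 without the mock stump, and 6 and 3 with DESeq2. By annotation, and collected after the values were seen, 18 of 29 extensin-like loci rose and 1 fell, 6 and 0 without the mock stump and 10 and 1 with DESeq2. EXT3 (AT1G21310), a cross-linking wall glycoprotein gene, went from 149, 182, 132 and 270.2 CPM to 1883 and 1646 CPM (3.28 ± 0.36, adjusted p = 0.000107). Extensin repeats are alike between genes, so reads may be shared among them.

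Channels and transporters rose in 13 of 20 cases and fell in 0, with a median of 2.93, where 12.5% of all genes were higher. PHO1 (AT3G23430), which loads phosphate into xylem, read 0, 0.836, 0 and 0 CPM in the tips and 113 and 23.5 CPM (341-fold, 95% interval 93.6 to 2830, adjusted p = 3.11e-05). AMT1;2 (AT1G64780), an ammonium transporter of the endodermis and cortex, had no count in the tips and 45.5 and 12.8 CPM in the stumps, at least 96.6-fold higher. TIP1;1 (AT2G36830), a vacuolar aquaporin, read 31.9, 167, 29.5 and 217 CPM in the tips and 1873 and 1132 CPM (3.75 ± 0.69, adjusted p = 0.00335). Uncut replicate 2 exceeded replicate 1 in both treatments, yet both stumps were above it. PIP2;1 (3.86), PIP2;2 (3.48), PIP2;3 (4.21), PIP1;2 (1.84), PIP1;1 (2.93), TIP2;2 (5.84) and TIP2;3 (3.79), all aquaporin genes, rose, as did the nitrate transporter gene NRT1.1 (3.298), the borate exporter gene BOR1 (1.39) and the phosphate transporter gene PHT1;1 (2.93). PIP2;2 and PIP2;3 are near-identical copies. The list's sum was 348 and 384 CPM in the replicate 1 tips, 1315 and 1327 CPM in the replicate 2 tips, and 6504 and 4331 CPM in the stumps. With uncut replicate 1 alone 19 genes were called, with replicate 2 alone 10, with DESeq2 8, without the CNQX stump 8 and without the mock stump 0.

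Wound-induced and regeneration factors rose in 8 of 12 cases and fell in 0, with a median of 2.20, where 12.5% of all genes were higher. RAP2.6 (AT1G43160), a wound-inducible AP2/ERF factor, read 0.293, 0.418, 0 and 1.43 CPM in the tips and 70.7 and 32.7 CPM in the stumps (6.45 ± 0.66, adjusted p = 7.55e-05). HSFB1 (AT4G36990), a repressing heat shock factor, went from 0.879, 3.34, 5.02 and 2.85 CPM to 174 and 80.3 CPM (5.45 ± 0.55, adjusted p = 7.07e-05). WOX13 (AT4G35550), a homeobox factor of callus formation and organ reconnection, went from 2.35, 1.67, 2.51 and 3.32 CPM to 37.3 and 27.1 CPM (3.697 ± 0.49, adjusted p = 0.000419). All 3 were above every tip in both stumps. RAP2.6L (2.87), WOX11 (4.29), a homeobox gene of new root formation, WIND1 (1.53), a dedifferentiation factor gene, PAT1 (1.43) and NAC096 (at least 28.2-fold) rose too. ERF115, a driver of stem cell replacement after damage, had 0.867 and 1.02 CPM in the stumps and no count in the tips, and was under the filter, and ESR1 had no count in any of the 6 libraries. Without the CNQX stump 4 were called and without the mock stump 2.

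Auxin response genes rose in 4 of 9 cases and fell in 0, with a median of 1.58. GH3.5 (AT4G27260), an auxin-conjugating enzyme gene, went from 5.57, 5.01, 5.65 and 6.65 CPM to 57.2 and 25.6 CPM (2.80 ± 0.45, adjusted p = 0.00136), GH3.3 was at least 21.6-fold higher, and GH3.6 (1.87) and IAA2 (1.74) rose. GH3.6 lost its call in 8 of 19 alternatives, DESeq2 and leaving out either stump or either uncut replicate 2 among them, and IAA2 lost it without mock uncut replicate 2 or the mock stump. Among 11 synthesis and transport genes, 1 rose and 3 fell (9.09% and 27.3%, where 12.5% and 3.89% of all genes did). TAA1 (AT1G70560), the aminotransferase of the main synthesis route, fell from 36.1, 56.4, 53.4 and 61.3 CPM to 8.24 and 20.4 CPM (-1.94 ± 0.44, adjusted p = 0.0103), while YUC8 (AT4G28720), of the next step, rose from 0.879, 3.76, 0 and 0.95 CPM to 19.9 and 8.18 CPM (3.38 ± 0.78, adjusted p = 0.0119). The efflux carrier gene PIN2 (-1.29) fell, though without mock uncut replicate 2 or either stump it was not called, and PIN3 (7.54 to 19.6 CPM in the tips, 14.3 and 11.8 CPM in the stumps), PIN4 (12.9 to 43.7 and 25.1 and 20.4 CPM) and the influx carrier gene AUX1 (57.2 to 90.7 and 86.3 and 85.9 CPM) were not called. Lacking the mock stump, no gene of either auxin list was called, and without the CNQX stump 2 of the response list and 1 of the other were.

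Other hormone lists held fewer calls, and over all genes 12.5% were higher and 3.89% lower. In ethylene 3 of 8 genes rose, and 1 was called without the mock stump. Among them the synthase gene ACS11 was at least 34.2-fold higher, and the receptor gene ETR2 rose from 2.05, 5.85, 6.91 and 14.2 CPM to 42.1 and 34.8 CPM (2.601 ± 0.54, adjusted p = 0.00662). In jasmonate, the repressor genes JAZ6 (4.60 ± 0.87) and JAZ1 (1.43 ± 0.36) rose and the synthesis gene OPR3 fell (-1.48 ± 0.42), 3 of 11, with none called without the mock stump. MYC2, the central jasmonate factor gene, read 86.7 to 105.4 CPM in the tips and 48.6 and 46.5 CPM in the stumps (adjusted p = 0.0595). In salicylic acid defence 1 of 6 rose, PAD4 (AT3G52430), from 11.4, 6.68, 6.28 and 7.12 CPM to 60.7 and 58.3 CPM (2.91 ± 0.39, adjusted p = 0.000415), the only call of this list also when either stump was left out. The salicylic acid share was 16.7%. In cytokinin 1 of 8 rose (12.5%, the same share as over all genes), the response regulator gene ARR9 (2.51 ± 0.51, adjusted p = 0.00547), lost without the mock stump. Of 8 sulfated peptide genes, PSK5 (181-fold, 95% interval 31.5 to 7221), RGF7 (3.36) and PSY1 (2.54) rose and RGF4 (-3.58) fell, and none was called without the mock stump.

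The glutamate receptor-like list had 5 tested genes and 0 calls. GLR3.3 read 22.9, 26.3, 12.6 and 22.8 CPM in the tips and 19.9 and 10.7 CPM in the stumps, GLR3.6 12.02, 12.5, 8.16 and 11.9 and 10.4 and 3.07 CPM, and GLR3.5 7.33, 11.3, 5.65 and 19.9 and 29.9 and 12.3 CPM, with fold changes of -0.50 ± 0.43, -0.83 ± 0.57 and 0.91 ± 0.59. Stump and tip values overlapped in these 3 genes. GLR3.7 (12.1 to 17.59 CPM in the tips, 11.7 and 14.8 CPM in the stumps) and GLR2.1 (3.77 to 9.02 and 11.3 and 13.8 CPM) were the others, and the remaining 9 genes of the list were under the filter. Adjusted p was 0.297 to 0.91.

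Photosynthesis genes, markers of green tissue, rose in 7 of 8 cases and fell in 0, with a median of 4.14 and sums of 14.7 to 16.7 CPM in the tips and 339 and 114 CPM in the stumps. RCA (AT2G39730), Rubisco activase, went from 2.05, 0.418, 1.26 and 1.43 CPM to 92.8 and 19.9 CPM (5.21 ± 0.60, adjusted p = 0.000165), and the mock stump was above the CNQX stump. RBCS1A (5.20), LHCB1.3 (4.46), LHCB3 (3.82), PSAD-1 (4.62), PSBO1 (3.46) and GLK2 (2.45) rose, and LHCA4 read 2.93 to 6.17 CPM in the tips and 23.9 and 9.71 CPM in the stumps (adjusted p = 0.0536). GLK2 lost its call in 9 of 18 alternatives, DESeq2, upper-quartile scaling and leaving out mock uncut replicate 1, either CNQX uncut replicate or either stump among them. The part of these genes in other differences was not tested. Plastid-encoded loci held 0.418% to 0.730% of counts across the 6 libraries. LHCB1.1, LHCB2.1, LHCA1, PSAE-1, RBCS2B and RBCS3B were under the filter. Leaving out the mock stump, no gene was called.

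Among the remaining lists, 3 of 4 hypoxia genes tested rose. They were the pyruvate decarboxylase genes PDC1 (3.83) and PDC2 (3.199) and the sucrose synthase gene SUS1 (1.86). The hypoxia factor gene HRE1 read 5.22 to 9.67 CPM in the tips and 6.94 and 8.69 CPM in the stumps. Of 11 hypoxia entries, ADH1, HB1, HRE2, LBD41, SUS4, PCO1 and PCO2 were under the filter, and 3 entries had no count in either stump. SUS1 lost its call in 8 of 18 alternatives, DESeq2, upper-quartile scaling and leaving out mock uncut replicate 1, mock uncut replicate 2, CNQX uncut replicate 1 or either stump among them. Of 4 triterpene cluster genes the thalianol genes THAS1 (4.46), THAD (3.46) and THAH (3.15) rose. Without the mock stump no gene of these 2 lists was called. Of 7 heat shock genes HSFA2 and HSP101 fell, where 3.89% of all genes were lower. HSFA2 (AT2G26150), a stress-induced activator gene, read 46.3, 12.5, 59.0 and 13.3 CPM in the tips and 3.47 and 2.56 CPM in the stumps (-3.40 ± 0.80, adjusted p = 0.0128), and HSP90.1 120.5, 18.0, 164 and 23.3 CPM and 12.1 and 21.99 CPM. The tips of replicate 1 were above those of replicate 2 in both treatments, none was called when either stump was left out, 1 was called with replicate 2 tips alone and 5 with replicate 1 tips alone. Among 15 clock genes the evening gene ELF4 rose from 19.4, 12.9, 32.6 and 29.4 CPM to 118 and 94.6 CPM (2.27 ± 0.38, adjusted p = 0.00191), GI rose (1.86) and the RNA-binding protein gene GRP7 fell (-1.40, lost in 6 of 19 alternatives, leaving out mock uncut replicate 1, mock uncut replicate 2, CNQX uncut replicate 1 or the mock stump among them), and none was called without the mock stump. Of the clock genes tested 13.3% were higher and 6.67% lower, where 12.5% and 3.89% of all genes were. CCA1 and LHY, the morning genes, read 0.628 to 8.07 CPM and 0 to 6.65 CPM in the tips and 6.07 and 0 CPM and 21.2 and 1.53 CPM in the stumps.

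The 12 highest fold changes, among called genes whose mean log2 CPM was no lower than 2 and with both stumps beyond the tips of their own treatment, all belonged to genes with no count in any tip. XTH31 (AT3G44990, chr3:16446935-16448844, minus strand in TAIR10.1), a xyloglucan hydrolase gene, had 205 and 70.0 CPM in the stumps, at least 453-fold above the tips. LAC3 (AT2G30210, chr2:12887446-12889931, minus strand), a laccase gene of the endodermis, had 139 and 67.0 CPM, at least 336-fold. Next came AT3G18280, of the lipid transfer protein superfamily (at least 323-fold), 5 peroxidase genes, AT5G66390 or PRX72 (317-fold), AT3G49960 (311-fold), AT4G26010 (286-fold), AT2G38380 (281-fold) and AT4G36430 (257-fold), all as lower bounds. The CAP protein gene AT5G57625 was at least 289.9-fold higher, the pectin methylesterase gene AT2G45220 or PME17 281-fold, the root hair wall protein gene PRP3 232-fold and the plastid movement gene PMI1 211-fold. In each of the 12 the mock stump was above the CNQX stump. All 12 had adjusted p of 0.0587 to 0.0978 in DESeq2 and so were not called there, and none lost its call in the other 18 alternatives (adjusted p up to 0.0159). PMI1 overlaps a neighbour on the same strand, GLR3.3, and AT4G26010 overlaps a gene on the other strand.

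The 12 lowest were all at 0 in both stumps. ATGSTF13 (AT3G62760, chr3:23217233-23218312, minus strand), a glutathione transferase gene, read 25.5, 12.1, 35.2 and 23.8 CPM in the tips, at least 33.2-fold above the stumps (adjusted p = 0.000463). The asparaginase gene ASPGB1 (AT3G16150) read 30.2, 6.27, 34.5 and 18.1 CPM, at least 31.5-fold, and the CAP protein gene AT1G50060 8.21, 21.72, 23.2 and 35.1 CPM, at least 28.6-fold. The LEA-like gene AT4G27400 (21.5-fold), the protease inhibitor gene AT3G04330 (16.7-fold), PLT1, the acyl-CoA oxidase gene ACX6 (12.7-fold), SMB, the AP2-domain gene AT1G77200 (11.5-fold), the SKU5-like gene sks16 (10.3-fold), AT3G43110, of unknown function (10.9-fold), and the WRKY30 factor gene (10.3-fold) followed, all as lower bounds. Of these 12 genes, 9 lost their call when 1 stump or the other was left out, and 0 in the other alternatives that measured them. PLT1 lies at chr3:7300444-7303693, plus strand, and SMB at chr1:29940803-29943713, minus strand. By annotation, and seen after the fact, 5 of 13 mannose-binding lectin genes fell and 3 rose. Over all genes tested 3.89% were lower and 12.5% higher. The adjacent lectin genes AT1G52050 (-5.26), AT1G52060 (-5.23) and AT1G52070 (-3.49) fell, and AT1G52060 read 83.8, 51.4, 179 and 396 CPM in the tips and 1.74 and 7.67 CPM in the stumps. They are close copies, so reads may be shared between them. In the fit lacking the mock stump 3 of these genes were called lower and 0 higher.

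In the main fit, without a replicate block, no gene was called for a stump difference that differed between CNQX and mock. The interaction of treatment and stage called 0 of 15593 genes (0%) in edgeR, with 242 (1.55%) at an unadjusted p under 0.05, 79 with a higher and 163 with a lower stump difference under CNQX; DESeq2 called 0 as well, with 106 at an unadjusted p under 0.05. With 1 stump per treatment and 2 residual degrees of freedom, both from the uncut pairs, this says little about a CNQX effect's size. CNQX contact also differed by stage: 14 h on plates for tips, and 1 h before the cut for stumps, with the new plates unknown. The interaction cannot be told apart from that difference. With the replicate number as a block, the interaction called 8 genes, 3 with a higher and 5 with a lower stump difference under CNQX. Without mock uncut replicate 2 the interaction called 7 genes, all with a lower stump difference under CNQX, and without mock uncut replicate 1, or without the count filter, it called 1. As values without a test, the stumps differed in level. Of the 1946 genes higher in the stumps, 1494 (76.8%) stood above the CNQX stump in the mock stump, and of the 607 lower genes 177 (29.2%) did, where 51.4% of all genes tested did. Because the mock stump helped to call them, these shares are a description. List medians of log2(CPM + 1), stump minus tips, were 5.15 and 3.77 in mock and CNQX for the Casparian strip, 4.05 and 2.63 for photosynthesis, 3.72 and 2.02 for triterpenes, 2.11 and 0.70 for auxin response, -1.74 and -1.15 for nucleolar assembly and -1.12 and -0.86 for G2/M. For root hair genes (1.34 and 1.85) and wall loosening genes (2.43 and 2.82) the CNQX median was the larger. The lowest unadjusted p of the interaction was that of AT2G38800, a calmodulin-binding protein gene, at 0, 0, 0.628 and 7.12 CPM in the tips and 128 and 37.8 CPM in the stumps, with an adjusted p of 1.

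**Figure D4:**
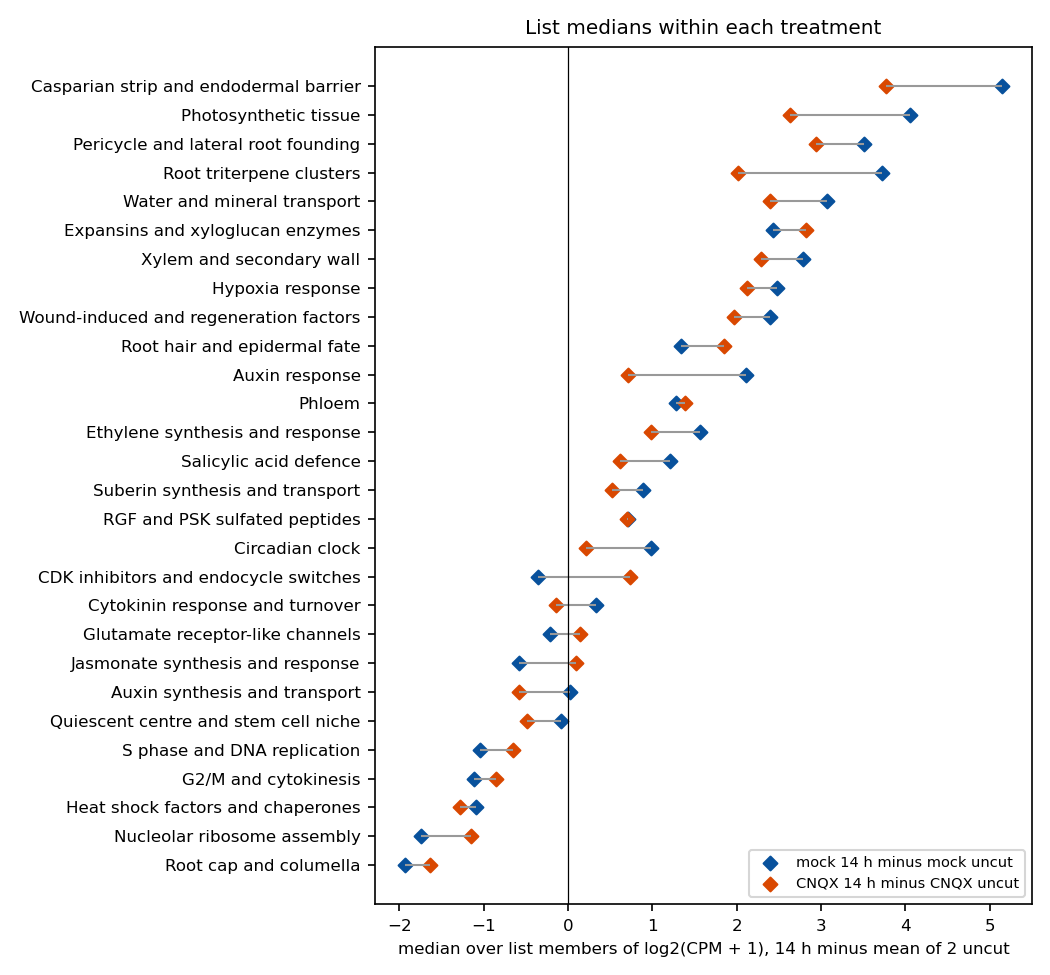
Median over the tested members of each list of log2(CPM + 1), stump minus the mean of the 2 uncut libraries of the same treatment, for mock (blue) and CNQX (orange). The Casparian strip median is 5.15 in mock and 3.77 in CNQX, and the nucleolar median is -1.74 and -1.15. CNQX contact was 14 h on plates for tips and 1 h before the cut for stumps, with the new plates unknown.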

How the data were processed

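Bulk RNA-seq was analysed for 6 libraries, 2 stumps at 14 h and 4 uncut tips. Per the labels' protocols, RNA from microdissected roots was amplified and sheared before library making, so duplicated reads are not separate molecules and intervals cover counting error only. Deposited were unnormalised whole-number counts for each locus, made by the authors, whose processing notes name HISAT2, DESeq2 and TAIR10 without versions. Neither the counting tool nor its strand setting is stated there. Of 150 top-ranked genes and called list members, 26 overlap a gene on the other strand. Rows for unassigned reads stayed out of library sizes, and 11.6% to 17.8% of the reads tallied were counted to loci. Of 32833 loci, 32548 were named through TAIR10.1.

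Samples were grouped by their labels. Counts were tested with edgeR 4.0.16 in R 4.3.3 (filterByExpr with a minimum count of 10, TMM scaling, quasi-likelihood F test, treatment plus stage, 3 residual degrees of freedom, Benjamini-Hochberg adjustment over all genes, calls at 0.05). The standard error is the log2 fold change divided by the square root of F. CPM values are counts over a library's total at tested loci, scaled by TMM. The floor of 0.908 to 1.90 CPM for 3 counts uses whole, unscaled totals instead. A gene at 0 in a group was set to 3 counts over that group to give a bound, and one with 1 to 3 counts has an exact Poisson interval at 95%. Such genes' fitted fold changes enter list medians and rankings. Alternatives were DESeq2 1.42.0, limma 3.58.1 (voom), other scalings, filters and library sets, a replicate block and leaving out each library; 3 sets of loci or uncut libraries were added after seeing the data. The members and gene lists were chosen with earlier results of these data known, and 12 list names absent from the annotation were left out. Named were the 12 highest and 12 lowest called genes and up to 6 members a list with the lowest p; further members are named to account for a list, after their values were seen. A few list members are counted but not reported here by name.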

Additional observations from a re-analysis of the deposited data

Results flagged for a closer look

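Among the 4 uncut libraries, 58 sets of values were screened for 1 library far from the rest, and 5 were picked out; chance alone gives about 1 in 20 sets. The summed CPM of the cytokinin genes was 353.5 in CNQX uncut replicate 1 and 103.6 to 131.1 in the other tips, with the response regulator gene ARR8 at 267 CPM there. The protease inhibitor gene AT3G04330 had 36.09 CPM in CNQX uncut replicate 2 and 4.104 to 6.908 CPM in the others. Mock uncut replicate 2 differed in its read tallies: 53.31% of reads were not unique (60.51% to 61.79% in the others), 24.96% fell on no feature (20.15% to 20.6%) and 17.76% were counted (13.58% to 14.28%). Without that library 2299 genes were called for the stump difference, and 7 for the interaction of treatment and stage.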

How the results depend on the processing

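The numbers of genes called under 10 of the alternatives in scaling, tool, filter, loci or libraries were within 1.5 times 2553 (1848 to 3824). With DESeq2, which was given 23497 genes and its own filter, so that tool and filter changed together, 1793 were higher and 853 lower, and with upper-quartile scaling, which put the all-gene median at -0.126, 1742 and 814. Using only uncut replicate 1, an alternative added after seeing the data, 5366 were called, and using only replicate 2, 2695. With the replicate number as a block, 4255 were called for the stump difference and 8 for the CNQX interaction. The labels give no batch behind the numbers, both stumps are number 1, and replicate 1 minus 2 correlated at 0.372 across genes between the treatments, with 2 pairs only. Leaving out each library gave 204 to 2781 calls for the stump difference, 22 to 133 for list members and 0 to 7 for the interaction, which could not be fitted without a stump. Without a filter the interaction called 1.

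Of 151 called genes followed by name, 0 changed direction, 99 were lost without the mock stump and 46 without the CNQX stump, and 108 were lost in no other setting. With DESeq2, 19 of 22 genes with no count in the tips lost their call, against 6 of 129 others; the cause was not tested. List medians changed sign in some settings for auxin supply, CDK inhibitors, cytokinin, glutamate receptors, jasmonate and niche, and for lectins with a minimum count of 30 (-1.81). At this depth a gene below 0.908 to 1.90 CPM could not be told from 0.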
